A study of Mus musculus with 24 samples.

Results

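A set of 7 enzyme and control genes of sterol synthesis was followed: Hmgcs1, Idi1, Fdft1, Sqle, Lss, Cyp51 and Insig1. They were picked by name, as the rows of the deposited count table whose Ensembl identifiers carry those symbols, and all 7 of 7 were found among the 54232 rows of the table. All 7 also passed the filter on low counts, which kept 16592 genes. The set, like the gene lists used below, was chosen with earlier results of these data known. Counts set beside the shares of all genes are therefore descriptions. The group was proposed as genes of sterol synthesis and uptake, but 6 of its members are synthesis enzymes and Insig1 controls the pathway. None of them takes up sterol, so the uptake genes are described from a separate list below.

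The libraries are bulk RNA-seq of osteoblasts, the bone-forming cells, cultured from pooled skull bones (calvariae) of newborn mice. Per the labels, polyadenylated RNA of wild-type (WT) and high bone mass (HBM) cultures was sampled on differentiation days 0, 10, 15 and 21. Each genotype had 3 pooled cultures, called batches 18, 19 and 21. These make 24 libraries in 8 groups of 3. The labels name no mutation for HBM, no strain and no sex, and no treatment other than the differentiation that both genotypes went through. Libraries of 1 genotype and batch were taken to be repeated samples of a single culture.

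Cholesterol is built from acetyl-CoA through mevalonate, isoprenoid units and the chain squalene, which is closed into lanosterol and trimmed to cholesterol. The genes of this route are switched on together by SREBP-2, a membrane-bound transcription factor encoded by Srebf2. When sterols are low, the escort protein SCAP carries SREBP-2 from the endoplasmic reticulum to the Golgi, where proteases free its active part. When sterols are high, INSIG proteins hold SCAP back, and Insig1 is itself an SREBP target, which closes a feedback loop. The mevalonate route also supplies the lipids that anchor small GTPases in bone cells, and it is the route that nitrogen-containing bisphosphonates block in osteoclasts.

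Because SREBP-2 binds sterol regulatory elements beside NF-Y boxes in promoters, the sequence before the start of each gene was searched. RefSeq windows on GRCm38.p6 (mm10) matched 5 of the 7 genes. Sqle and Fdft1 had no entry. The search covered 250 bases before the RefSeq start, on both strands. The sterol element core TCACNCCAC occurred in 1 of 5 windows, that of Hmgcs1, and in 1.05% of all 32841 windows of that length. The shorter core CACNCCAC, which lies inside the longer one, occurred in 2 of 5 (Hmgcs1 and Insig1) against 5.29% of windows. The NF-Y box CCAAT occurred in 5 of 5 against 33.9%, though the boxes of Idi1 and Cyp51 lay inside the gene as annotated by GENCODE. The Sp1 box GGGCGG occurred in 5 of 5 against 32.7%, that of Idi1 again inside the annotated gene. The E-box CACGTG occurred in 1 of 5, Insig1, against 6.02%. A match describes letters and not a bound site. Only 3 stretches are shown, with those of Insig1 and Lss cut off where the GENCODE gene begins: Hmgcs1 for its sterol element core, Insig1 as the feedback gene, and Lss as the enzyme called in both genotypes below. They lie at chr13:119690101-119690350, chr5:28071162-28071362 and chr10:76531355-76531587, all on the plus strand, and run 5′ to 3′. Capitals mark TCACNCCAC and CCAAT on either strand, so that ATTGG is CCAAT read on the other strand.
Hmgcs1: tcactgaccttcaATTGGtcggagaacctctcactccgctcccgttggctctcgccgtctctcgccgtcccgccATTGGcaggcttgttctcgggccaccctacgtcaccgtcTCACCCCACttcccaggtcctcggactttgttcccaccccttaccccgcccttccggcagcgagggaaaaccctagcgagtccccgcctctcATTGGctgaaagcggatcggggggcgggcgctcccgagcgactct
Insig1: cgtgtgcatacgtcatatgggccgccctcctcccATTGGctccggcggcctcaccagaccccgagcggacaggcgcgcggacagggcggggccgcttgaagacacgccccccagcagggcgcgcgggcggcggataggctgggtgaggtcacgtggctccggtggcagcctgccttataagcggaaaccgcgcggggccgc
Lss: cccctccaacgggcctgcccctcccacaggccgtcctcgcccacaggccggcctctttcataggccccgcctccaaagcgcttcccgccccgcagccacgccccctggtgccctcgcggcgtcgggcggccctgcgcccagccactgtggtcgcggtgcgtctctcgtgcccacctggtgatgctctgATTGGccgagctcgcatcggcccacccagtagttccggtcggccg
The Hmgcs1 core lies 137 bases before the RefSeq start, with CCAAT boxes 237, 176 and 45 bases before it. The Insig1 core lies 9 bases before its RefSeq start, inside the GENCODE gene, and is outside the stretch shown.

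Library totals ran from 28039095 to 46987734 counts, and single libraries held 95 to 15350 counts of a member. Levels are CPM, that is, counts divided by the TMM-scaled library size. The osteoblast marker list (9 genes, among them Runx2, Col1a1 and Alpl) was high throughout. At day 0 its sum was 32900 to 55400 CPM in the WT libraries and 42700 to 60700 CPM in the HBM libraries. At day 10 it was 51300 to 94700 and 72900 to 170000 CPM. Day 0 lay apart from the later days on the first principal component, which took 54.8% of the variance, whereas days 10, 15 and 21 overlapped along it. Batch 21 stood apart on the second, which took 14.8%. The inactive X transcript Xist was at 0 to 0.0328 CPM in batch 21 and at 18 to 528 in the other batches, so the pools differed in sex composition between batches. The 2 pools of batch 19 differed too, with Xist at 18 to 41.7 CPM in the WT pool and 177 to 246 CPM in the HBM pool. Such genes also varied between days of pools taken here as a single culture. In WT of batch 19 the Y-linked Ddx3y was at 22.2 CPM at day 0 and at 55.6 to 62.8 later. In HBM of batch 18 Xist was at 528 CPM at day 0 and at 279 to 332 later. The reason was not tested. The WT day 0 library of batch 19 held the highest summed level of chondrocyte markers, 16600 CPM.

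From day 0 to day 10 all 7 genes went down in each of the 3 batches of both genotypes. Over all genes tested, 24.8% in WT and 30.1% in HBM were lower in 3 of 3 batches. A gene was called when its adjusted p from edgeR's quasi-likelihood test, Benjamini-Hochberg over all genes tested, was under 0.05. Without a block, 3 of 7 were called lower in WT (Fdft1, Lss and Cyp51), against 14.1% of all genes. In HBM 1 of 7, Lss, was called lower, against 12.4%. With the culture as a block, so that each culture was compared with itself, 7 of 7 were called lower in WT, against 18.8% of all genes, and 6 of 7 in HBM, against 17.7%. Insig1 in HBM missed the threshold. The median log2 change of the 7 genes was -1.36 in WT and -0.94 in HBM without the block, and -1.24 and -0.85 with it, beside medians over all genes of -0.02 and 0 without it and 0 and 0 with it.

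**Figure D1:**
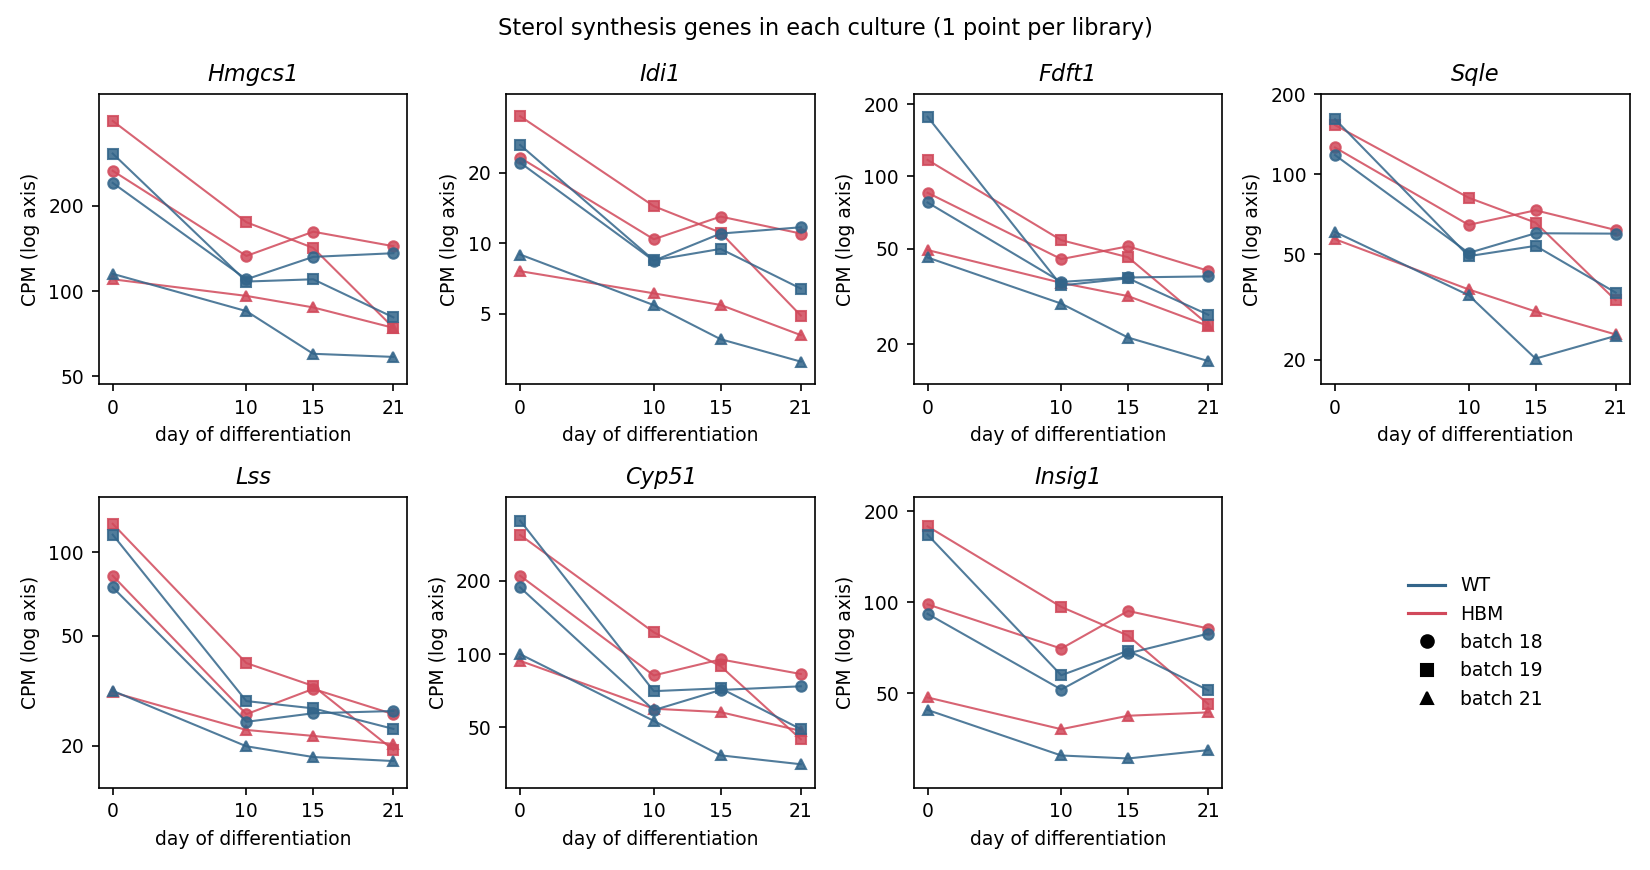
Level of each gene in CPM (log axis) against day of differentiation. Each line is 1 culture, blue for WT and red for HBM, with a circle, square or triangle for batch 18, 19 or 21. In every panel the day 0 points lie highest in each culture, and the triangles of batch 21 mostly lie lowest.

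Hmgcs1 (ENSMUSG00000093930, chr13:119690379-119708260, plus strand) encodes the synthase that makes HMG-CoA at the head of the mevalonate route. In WT it stood at 241, 306 and 115 CPM at day 0 in batches 18, 19 and 21, and at 110, 108 and 84.9 CPM at day 10. In HBM it stood at 266, 399 and 110 CPM at day 0, then 133, 175 and 96.1 CPM at day 10. The WT days did not overlap, whereas the HBM day 0 library of batch 21 lay below the day 10 libraries of batches 18 and 19. With the culture block it fell by a log2 of 1.03 ± 0.29 (SE) in WT and 0.84 ± 0.29 in HBM, with edgeR adjusted p of 0.0108 and 0.0302. Without the block the adjusted p was 0.074 and 0.134.

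Idi1 (ENSMUSG00000058258, chr13:8885501-8892451, plus strand) interconverts the isoprenoid units that are joined into longer chains. It had the fewest counts of the 7. In WT it stood at 22.1, 26.3 and 8.95 CPM at day 0, then 8.42, 8.46 and 5.44 CPM at day 10, in the order of batches 18, 19 and 21. In HBM the values were 23.2, 34.9 and 7.6 CPM, then 10.4, 14.4 and 6.11 CPM. Only batch 21 of HBM kept the days from separating. Idi1 fell by a log2 of 1.24 ± 0.31 in WT and 0.96 ± 0.31 in HBM in the culture-block fit, with edgeR adjusted p of 0.00598 and 0.0235, and 0.0976 and 0.183 without it.

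Fdft1 (ENSMUSG00000021273, chr14:63145150-63179578, minus strand) encodes squalene synthase, which makes the first compound committed to sterols. Its WT levels were 77.8, 177 and 45.9 CPM at day 0 and 36.3, 35.1 and 29.5 CPM at day 10. Its HBM levels were 85.4, 117 and 49.3 CPM, then 45.2, 54.2 and 36 CPM. The WT library of batch 19 was the highest by far at day 0, and only in HBM did the days overlap. Without a block Fdft1 fell by a log2 of 1.58 ± 0.42 in WT (edgeR adjusted p = 0.0108). With that batch 19 library left out the WT value was -0.88 ± 0.38 and was not called (0.1). The HBM value of -0.90 ± 0.42 was not called (0.118). With the culture block the adjusted p was 0.00182 and 0.0307. On 774 exon bases Fdft1 overlaps Ctsb, a cathepsin gene on the other strand with 1865525 counts in all. As the strand setting of the counting is not given in the sources used here, the level of Fdft1 is uncertain.

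Sqle (ENSMUSG00000022351, chr15:59315077-59331192, plus strand) encodes squalene epoxidase, an oxygen-dependent step. WT cultures held 118, 161 and 60.6 CPM at day 0 and 50.5, 49.1 and 35 CPM at day 10. HBM cultures held 126, 153 and 56.9 CPM, then 64.4, 81.5 and 36.8 CPM. Here too the WT days were apart and the HBM days overlapped. In the culture-block fit Sqle fell by a log2 of 1.24 ± 0.24 in WT and 0.83 ± 0.24 in HBM (edgeR adjusted p = 0.00107 and 0.0126). Without it the adjusted p was 0.0566 and 0.203.

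Lss (ENSMUSG00000033105, chr10:76531588-76557138, plus strand) encodes lanosterol synthase, which closes the sterol rings. The WT values were 74.8, 116 and 31.6 CPM at day 0 and 24.4, 29 and 19.9 CPM at day 10. The HBM values were 82.4, 127 and 31.2 CPM, then 26, 39.8 and 22.8 CPM. It was the 1 gene called in both genotypes without a block, at a log2 change of -1.60 ± 0.43 in WT and -1.44 ± 0.43 in HBM, with edgeR adjusted p of 0.0108 and 0.0187. With the block the adjusted p was 0.00176 and 0.00327.

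Cyp51 (ENSMUSG00000001467, chr5:4081145-4104746, minus strand) encodes the lanosterol demethylase. In WT it stood at 188, 354 and 100 CPM at day 0, then 58.9, 70.5 and 53.2 CPM at day 10. In HBM it stood at 210, 309 and 93.9 CPM, then 81.8, 123 and 59.7 CPM. It had the largest fitted fall of the 7 in WT, a log2 change of -1.81 ± 0.46, or 3.52-fold lower (edgeR adjusted p = 0.00792). In HBM the change was -1.21 ± 0.45 and was not called without a block (0.055), but was with it (0.00948). It shares 166 exon bases with Akap9 on the other strand.

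Insig1 (ENSMUSG00000045294, chr5:28071363-28078662, plus strand) encodes the sterol-sensing retention protein of SCAP. WT libraries had 91.6, 167 and 44.1 CPM at day 0 and 51.5, 57.4 and 31.2 CPM at day 10. HBM libraries had 98.4, 178 and 48.5 CPM, then 70.3, 96.5 and 38.1 CPM. It was the only one of the 7 whose days overlapped in both genotypes. With the culture block it fell by a log2 of 0.99 ± 0.30 in WT (edgeR adjusted p = 0.0156, and 0.129 without the block). The HBM change of -0.61 ± 0.29 was not called in either fit (0.114 with the block, 0.373 without).

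**Figure D2:**
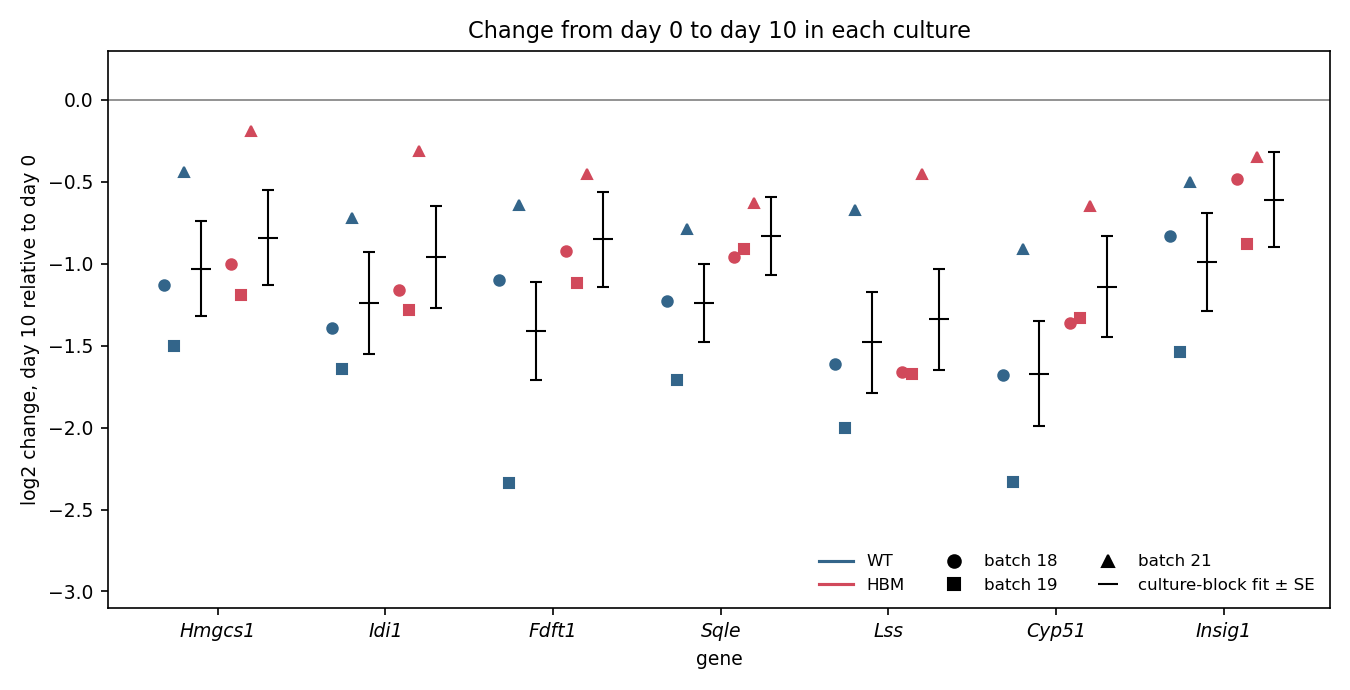
Log2 change from day 0 to day 10 for each gene, WT in blue and HBM in red, 1 point per batch, with the value of the culture-block fit and its SE in black. All points lie below 0, the triangles of batch 21 nearest to it.

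Every day 10 value lay below every day 0 value for 6 of 7 genes in WT, against 16.3% of all genes, and for 0 of 7 in HBM, against 19.6%. No gene of the 7 was higher at day 10, while 12.2% of all genes in WT and 14.1% in HBM were called higher without a block, and 19.7% and 20.5% with it. The step did not differ detectably between genotypes: the HBM minus WT difference of the log2 changes ran from 0.16 ± 0.59 (Lss) to 0.68 ± 0.58 (Fdft1), 0 of 7 were called in either fit, against 0% of all genes, and 0 of 7 had an unadjusted p under 0.05. Its sign was positive for all 7, in genes that move together.

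Single libraries decided some of these calls. Without the WT day 0 library of batch 19, the WT calls made without a block were lost, with log2 changes and edgeR adjusted p of -0.88 and 0.1 for Fdft1, -1.12 and 0.0666 for Lss and -1.25 and 0.0539 for Cyp51. Without the HBM day 0 library of batch 19, Lss in HBM was lost (0.127), as it was without the HBM day 10 library of batch 18 (0.0655) or of batch 21 (0.0693). With the culture block the WT count was 5 to 7 of 7 when each library of these groups was left out in turn. The HBM count was 1 to 6, with the low of 1, Lss, when the batch 19 library of day 0 or the batch 18 library of day 10 was left out. Leaving out batch 21 altogether gave 7 of 7 in WT and 5 of 7 in HBM without a block.

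Other cell markers moved over the same step. The summed macrophage list (11 genes, among them Csf1r and Adgre1) ranged over 56.1-1300 CPM at day 0 and 2660-8350 CPM at day 10 in WT, and over 42.6-1050 and 1540-11100 CPM in HBM. With the culture block 11 of 11 of its genes were called higher in each genotype, against 19.7% of all genes in WT and 20.5% in HBM. The adipocyte list (10 genes) ranged over 21.3-49.8 and 234-427 CPM in WT, and over 20-36.4 and 270-600 CPM in HBM, with 8 and 10 of 10 called higher. Its Lep was at 0 in all day 0 libraries. Summed genes of dividing cells, which need sterols for new membrane, went from 544 to 271 CPM in WT and from 649 to 396 CPM in HBM in batch 18, and from 988 to 619 and from 1060 to 636 CPM in batch 19. In batch 21, where the sterol genes changed least, the sums instead went up, from 282 to 397 CPM in WT and from 290 to 383 CPM in HBM. Of these 10 genes, 2 were called lower in WT and 0 in HBM. Over all genes 18.8% in WT and 17.7% in HBM were called lower with the culture block, and 14.1% and 12.4% without it. The chondrocyte sum went from 16600 to 3640 CPM in WT and from 9010 to 1680 CPM in HBM in batch 19, the batch with the highest sterol gene levels at day 0. It was lower at day 10 in the other cultures too, except WT of batch 21 (4050 and 4320 CPM). Single genes of that list went both ways. With the culture block Col9a2 and Comp were called higher in both genotypes. In HBM Matn1 and Col9a1 were called higher as well, and Sox9 was called lower. The WT value of Matn1 was also above 0, at a log2 change of 3.93 ± 1.3 without a block. Col2a1 was below 0 in both and was not called. The smooth muscle and pericyte sum ranged over 3070-5490 and 2310-3250 CPM in WT, and over 3830-4420 and 2350-3500 CPM in HBM, lower at day 10 in every culture but WT of batch 21. The osteoclast sum ranged over 146-255 and 271-499 CPM in WT, and over 146-180 and 337-565 CPM in HBM, higher at day 10 in every culture. In bulk RNA, fewer cells of a type and less RNA per cell cannot be told apart. The part of these lists in the fall of the sterol genes was not tested.

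After day 10 no step was called. From day 10 to 15 and from day 15 to 21, edgeR called 0 of 7 in WT and in HBM with and without the block, against 0% of all genes in each case, and 0 of 7 had an unadjusted p under 0.05 in any of them. DESeq2 called 0 of 7 as well. Cyp51 stood at 60.9 ± 8.82, 60.7 ± 19.3 and 52.8 ± 19.5 CPM (mean ± SD, n = 3) at days 10, 15 and 21 in WT, and at 88.1 ± 32.0, 80.8 ± 20.1 and 58.7 ± 21.1 CPM in HBM. Hmgcs1 stood at 101 ± 14.0, 101 ± 36.8 and 91.6 ± 39.7 CPM in WT and at 134 ± 39.3, 131 ± 38.6 and 97.4 ± 40.3 CPM in HBM. From day 15 to 21 the fitted value was below 0 for 7 of 7 genes in both genotypes, with medians of -0.16 in WT and -0.46 in HBM, none of it past the threshold. In HBM the step of batch 19 was the lowest of the 3 for Idi1, from 11.1 to 4.91 CPM, and for Sqle, from 65.7 to 33.5 CPM.

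Levels were compared between genes per kilobase of annotated exon. Hmgcs1 was highest in 23 of 24 libraries, at 30.9 ± 18.1 CPM per kb over all libraries (mean ± SD, n = 24), and Cyp51 was highest in the remaining 1, WT day 0 of batch 19. Cyp51 followed at 23.2 ± 18.6 and Insig1 at 22.7 ± 12.3 CPM per kb. Those neighbours changed places: Cyp51 lay above Insig1 in all 6 day 0 libraries and Insig1 above Cyp51 in most later ones. Fdft1 at 11.7 ± 8.34 and Sqle at 11.5 ± 6.98 CPM per kb came next, in an order that followed the batch. Fdft1 lay above Sqle in both day 0 libraries of batch 19 and in the batch 21 libraries other than WT at days 0 and 21, and Sqle lay above Fdft1 in the rest. Idi1 was lowest in 15 libraries, at 3.22 ± 2.25 CPM per kb, and Lss in 9, at 3.54 ± 2.79. The exon length of Lss joins all annotated transcripts, 10787 bases, which lowers its value per kb.

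The 7 genes moved together across libraries. Over the 24 libraries the 21 pairs of log2 CPM correlated at r = 0.859 to 0.989, with a median of 0.945. After subtraction of the group means, which removes day and genotype, r was 0.842 to 0.987. Over the 18 libraries of days 10 to 21 it was 0.845 to 0.98. These are descriptions, since the libraries share cultures, days and batches. Among 10992 genes with a mean of at least 5 CPM, the 10 most like the mean profile of the 7 over 24 libraries included Msmo1 (r = 0.976), Mvd (0.973), Fdps (0.97), Sc5d (0.967), Nsdhl (0.956), Srebf2 (0.947), Mmgt1 (0.946) and Stard4 (0.941). Of the 10, 9 were on the listed sterol pathways, the exception being Mmgt1. Over the later 18 libraries 5 of the 10 stayed among the 10 most alike, and on deviations from the group means 6 did.

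The batches differed in all 7 genes. The 4 days of a culture were added up to 1 count per gene and fitted with genotype and batch terms. The batch terms were called for 7 of 7 genes, with edgeR adjusted p of 0.00297 (Insig1) to 0.00551 (Fdft1), against 32.3% of all genes. Batch 21 lay below batch 18 by a log2 of 0.72 for Fdft1 at the least, and the value of Idi1 was -1.32, whereas batch 19 differed from batch 18 by 0 to 0.31. Batch 21 was the lowest batch in 8 of 8 groups for 5 of 7 genes, against 4.93% of all genes, and in 7 of 8 for Lss and Cyp51. Relative to the mean of batches 18 and 19, batch 21 stood at a median of 0.416 for Idi1 and 0.686 for Lss, the other genes between. The lowest ratios of single groups were 0.262 for Idi1 and 0.298 for Lss, both in HBM at day 0. All 7 remained called when each culture was left out in turn. Batch 21 also lacked Xist, and its summed macrophage markers were 1050 to 1300 CPM at day 0 and 7760 to 11100 later, against 42.6 to 122 and 1540 to 6160 in the other batches. Its genes of dividing cells summed to 282 to 290 CPM at day 0, against 544 to 1060 in the others, and its osteoblast markers to 41600 to 102000 CPM after day 0, against 82000 to 215000. Sex composition, cell makeup and batch cannot be told apart here.

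HBM and WT were not called different in any of the 7 genes on any day. Without a block edgeR called 0 of 7 at days 0, 10, 15 and 21, against 0% of all genes on each day, with 0 of 7 at an unadjusted p under 0.05, and DESeq2 called 0 of 7. With batch within day as a block it also called 0 of 7 on each day, against 0.127%, 1.31%, 0.331% and 0.241% of all genes. On counts summed over days 0 of 7 were called with and without the block, against 0% of all genes. On the middle days the values leaned toward HBM without passing the threshold. As the 7 genes moved together across libraries, the counts that follow are not 7 independent results. At day 10 all 7 genes were higher in HBM in 3 of 3 batches, against 21.5% of all genes, and at day 15 again all 7, against 19%. At day 0 this held for 1 of 7, Insig1, against 13.6%, and at day 21 for 0 of 7, against 18.3%. At an unadjusted p under 0.05 the blocked fit had 7 of 7 at day 10, against 15.1% of all genes, 6 of 7 at day 15, against 12.5%, and 0 of 7 at days 0 and 21, against 16.1% and 13.8%.

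The largest blocked differences were those of Insig1 and Cyp51 at day 10. Insig1 was 51.5, 57.4 and 31.2 CPM in WT and 70.3, 96.5 and 38.1 in HBM at day 10, a log2 difference of 0.50 ± 0.11 with the block and an edgeR adjusted p of 0.0523. Cyp51 differed by 0.48 ± 0.13 (0.0973). Within batches the day 10 differences ran from 0.07 (Sqle, batch 21) to 0.80 (Cyp51, batch 19), and batch 19 gave the largest for all 7 genes. In that batch the Xist levels of the 2 pools also differed, as given above. Cell markers differed between the genotypes as well. At day 10 the osteoblast sum was 82000, 94700 and 51300 CPM in WT and 131000, 170000 and 72900 CPM in HBM in batches 18, 19 and 21, and the chondrocyte sum was 1050, 3640 and 4320 CPM in WT and 782, 1680 and 1530 CPM in HBM. At day 15, as at day 0, the osteoblast sum was likewise higher and the chondrocyte sum lower in HBM in each batch. The part of these markers in the difference was not tested. At day 15 the differences ran from 0.17 (Insig1, batch 19) to 0.59 (Sqle and Cyp51, batch 21). The WT and HBM libraries overlapped for all 7 genes on each day. Whether the genotype difference itself changed over days was tested only for the step from day 0 to 10, above.

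**Figure D3:**
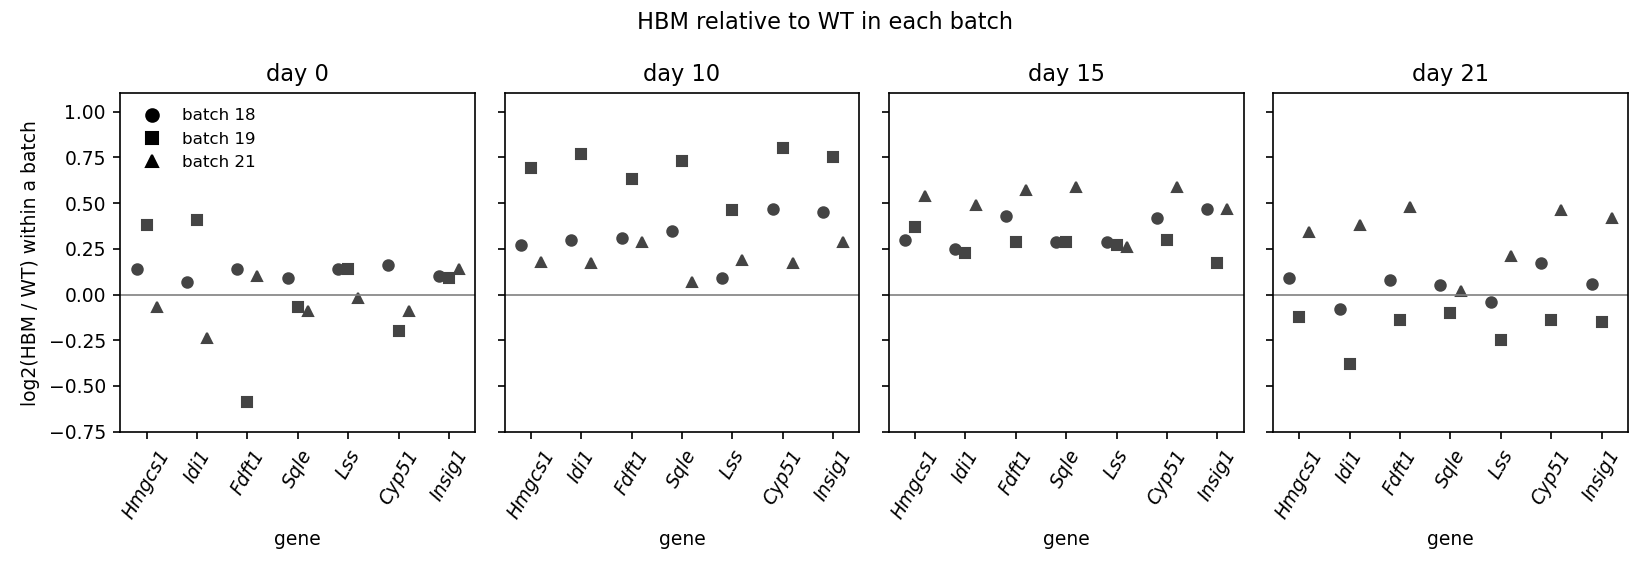
Log2 ratio of HBM to WT within each batch for the 7 genes, 1 panel per day, with a circle, square or triangle for batch 18, 19 or 21. All points of days 10 and 15 lie above 0, from 0.07 to 0.80, whereas those of days 0 and 21 lie on both sides.

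The rest of the pathway was taken from lists of known genes. Of 21 cholesterol synthesis genes, 6 of them members, 9 were called lower from day 0 to 10 in WT and 4 in HBM without a block, where 14.1% and 12.4% of all genes were, and 17 and 12 with the culture block, where 18.8% and 17.7% were. The list's median log2 change without the block was -1.23 in WT and -0.88 in HBM, beside -0.02 and 0 for all genes, and the lists that follow are given on the same scale. Msmo1, which removes a methyl group after Cyp51, fell by a log2 of 1.69 ± 0.42 in WT (edgeR adjusted p = 0.00711) and was at -1.06 ± 0.42 in HBM (0.0671). Sc5d and Hsd17b7, later steps of the trimming, fell in HBM by 0.80 ± 0.27 and 1.05 ± 0.35 (0.0382 and 0.0352), and Sc5d also in WT by 0.91 ± 0.27 (0.0214). Ebp, the sterol isomerase, was the 1 gene of the list with a value above 0 in HBM, at 0.42 ± 0.29, and was not called. No gene of the list was called higher.

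The list of 7 genes that control SREBP includes the member Insig1. Of this list, 2 were called lower (14.1% of all genes) and 1 higher (12.2%) in WT, and 1 lower in HBM (12.4%). The list medians were -0.22 and -0.34. Srebf2 stood at 199, 252 and 158 CPM at day 0 and 107, 127 and 130 at day 10 in WT, with no overlap, and fell by a log2 of 0.74 ± 0.20 (edgeR adjusted p = 0.0117). In HBM it fell by 0.56 ± 0.20 (0.0457). Srebf1, which favours fatty acid genes, fell by 0.75 ± 0.20 in WT (0.0104) and was at -0.34 ± 0.20 in HBM (0.216). Mbtps1, the Golgi protease that makes the first cut in SREBP, rose by 0.44 ± 0.14 in WT (0.0295). Insig2, the other INSIG gene, was at -0.22 ± 0.12 and -0.06 ± 0.12 and was not called.

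Of 12 genes of sterol uptake and transport inside the cell, 2 were called higher in each genotype, against 12.2% of all genes in WT and 14.1% in HBM, with list medians of -0.19 in WT and 0.23 in HBM. Mylip, a ubiquitin ligase that sterol-activated LXR switches on, rose by a log2 of 0.82 ± 0.12 and 0.81 ± 0.12 (edgeR adjusted p = 0.000132 and 0.000148). Lipa, the lysosomal acid lipase, rose by 1.22 ± 0.39 and 1.40 ± 0.40 (0.029 and 0.0152).

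Of 8 genes of sterol efflux, oxidation and storage, 4 were called higher in WT and 3 in HBM without a block, against 12.2% and 14.1% of all genes. With it 5 and 5 were, against 19.7% and 20.5%, and none was called lower in either fit. The list medians were 1.46 and 1.35. The cholesterol exporter Abca1 stood at 39, 14.5 and 59.3 CPM at day 0 and 87.2, 72.4 and 168 at day 10 in WT, and rose by a log2 of 1.54 ± 0.48 (edgeR adjusted p = 0.0252). In HBM the change was 1.20 ± 0.48 and was called only with the block (0.00493). Apoe rose by 5.43 ± 1.0 in WT and 6.23 ± 1.1 in HBM, Abcg1 by 4.12 ± 0.92 and 4.26 ± 0.91, and Nr1h3, which encodes the oxysterol receptor LXR alpha, by 1.86 ± 0.46 and 2.47 ± 0.47 (adjusted p of 0.00669 or less). Macrophages express these genes strongly, and the macrophage markers rose over the same step as given above. Their part was not tested.

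Of 10 SREBP-linked fatty acid genes, 3 were called lower in WT and 4 in HBM, against 14.1% and 12.4% of all genes, with list medians of -0.68 and -0.56. Fasn, the fatty acid synthase, fell by 0.75 ± 0.18 in WT and 0.89 ± 0.18 in HBM, and Acly, which supplies acetyl-CoA, by 0.77 ± 0.20 and 0.94 ± 0.20 (edgeR adjusted p of 0.00892 or less). Me1, a source of NADPH, fell by 0.45 ± 0.13 and 0.41 ± 0.13 (0.0155 and 0.0237). Acaca, the carboxylase before Fasn, fell in HBM by 0.63 ± 0.17 (0.0118). Of 9 genes of the isoprenoid branch, which leads from mevalonate to ubiquinone, dolichol and protein prenylation, 2 were called lower in HBM, against 12.4% of all genes (Pdss2, -0.42 ± 0.13, adjusted p = 0.0267, and Nus1, -0.30 ± 0.10, 0.0403). The list medians were -0.26 in WT and -0.25 in HBM.

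**Figure D4:**
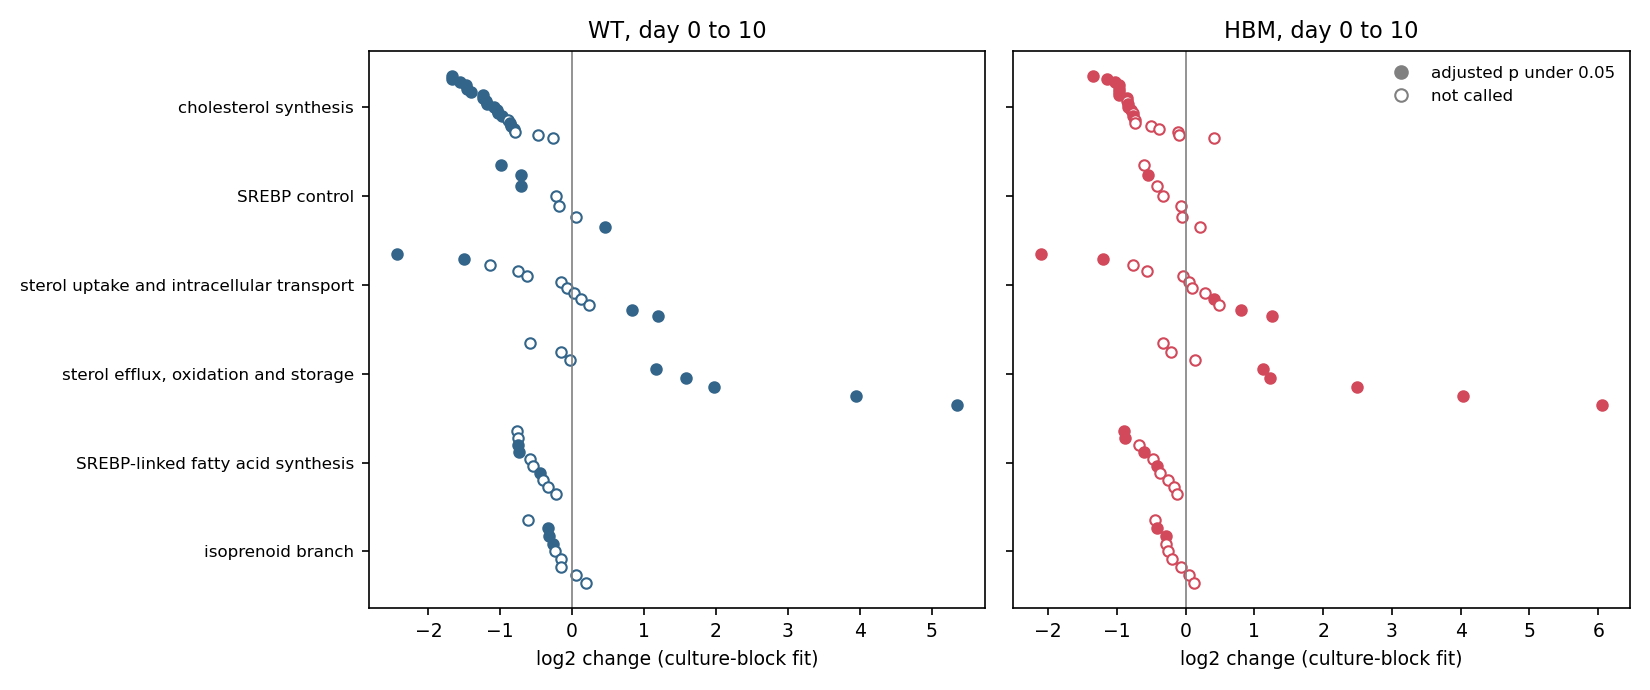
Log2 change from day 0 to 10 in the culture-block fit for the genes of 6 pathway lists, WT on the left and HBM on the right, 1 point per gene, filled where the adjusted p was under 0.05. Cholesterol synthesis genes lie to the left of 0 with the exception of Ebp in HBM, and the called genes of efflux, oxidation and storage lie to the right.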

How the data were processed

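The authors deposited 1 table of raw counts of reads per gene in 24 libraries. Per the submitters' processing notes, cutadapt 3.4, STAR 2.7.8a and featureCounts of Subread 2.0.1 were used with mm10. Neither the strand setting nor the annotation release is given in the sources used here. Symbols and positions were taken from GENCODE M21, which matched 54164 of 54232 rows. The 68 others held at most 0.00337% of a library and were not removed. Library sizes are the sums over the genes that passed the filter.

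Counts were fitted in R 4.3.3 with edgeR 4.0.16 (TMM factors 0.866 to 1.11, filterByExpr, quasi-likelihood test, Benjamini-Hochberg over all genes tested, threshold 0.05), in 1 model of 8 groups. CPM values are counts divided by the TMM-scaled library size. The SE of a log2 change was worked back from the quasi-likelihood test. It is the size of the change divided by the square root of the F statistic. Counts summed over the days of a culture (18387 genes) gave the tests of batch and of the genotype over all days. Correlations used log2 CPM with a prior count of 2. The code was tested on simulated data. The days of a culture are not independent, but without a block each counts as its own library. The cultures are separate pools, per the labels. Counting error alone does not cover their differences, so the fits also estimated the spread between libraries.

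On a day, the batch tag of the labels paired the samples. WT and HBM libraries of 1 number deviated together from their group means, at r = 0.542 to 0.815 across genes, against at most 0.127 for other numbers. Deviations from a group mean cancel out within the group, so a high r for 1 number lowers r for the others. The low r of other numbers is therefore no separate support for the pairing. Within a culture, the deviations of day 0 and a later day correlated at r = -0.0186 to 0.443. Those of 2 later days correlated at 0.418 to 0.794. The culture block pairs day 0 with day 10, which these values bear out less than the pairing on a day. Alternatives were a block for batch or culture, DESeq2 1.42.0, RLE scaling, no filter, a fit of the compared groups alone, each library left out in turn and batch 21 left out.

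The members and all lists were chosen with earlier results of these data known. Besides the members, Srebf1, Srebf2, Insig2 and Abca1 were named always, as were up to 4 called genes per list, step and direction with the smallest p, and the 10 most alike genes of at least 5 CPM. Some genes that this rule names are not reported here, though the list counts and medians include them. Ebp was named after its value was seen.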

Additional observations from a re-analysis of the deposited data

How the results depend on the processing

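The count of genes called lower from day 0 to 10 depended on the fit. Without a block it was 3 of 7 in WT and 1 of 7 in HBM. The pairing by culture, as a replicate block, gave 7 in WT and 6 in HBM. DESeq2 gave 5 and 2, a fit of only the compared groups gave 0 and 0, and leaving out batch 21, an alternative chosen after the data were seen, gave 7 and 5. Leaving out each library in turn gave 0 to 7 in WT and 0 to 3 in HBM without a block, and 5 to 7 and 1 to 6 with the culture block. RLE scaling and no filter moved none of these counts by over 1.5 times, and the later steps, the genotype comparisons and the interaction had 0 of 7 called under each alternative run. The block changed no other call of the 7 genes. On the pathway lists it added calls, among them those counted above for cholesterol synthesis and efflux, and Pdss2 and Nus1 lower in WT (edgeR adjusted p = 0.0497 and 0.0456). Of 1246 values of single genes recomputed, 1091 kept their direction and their side of the threshold, 32 lost a call, 26 gained one, 0 called values changed sign and 97 uncalled values did. The causes were not tested.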
